A study of Rattus norvegicus with 7 samples.

Results

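Complex I (NADH:ubiquinone oxidoreductase) genes were followed in 7 cultures of NRK-52E, an epithelial line from normal rat kidney. Members were all probe sets whose single gene symbol on the array's annotation began with Nduf. These were 46 of 31099 probe sets and 42 of 14217 symbols: 34 complex I subunit genes, 6 assembly factors of the Ndufaf series, Ndufa4 and its homologue Ndufa4l2. The series concerns Adamts16, a secreted metalloprotease studied in inherited hypertension. Each culture was transfected by lipofection with an siRNA duplex at 100 pmol per ml and harvested 48 h later. The groups were siRNA 3488 against Adamts16 (2 arrays), siRNA 2600 against Adamts16 (2 arrays) and a scrambled control siRNA (3 arrays), and the series design states that every array came from a culture of its own. All 7 cultures therefore carried lipid and a duplex, no untransfected culture was analysed here, and all cells were of 1 line.

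Complex I passes electrons from NADH to ubiquinone and pumps protons across the inner mitochondrial membrane. It has a matrix arm, which holds the flavin and the iron-sulphur clusters, and a membrane arm, which holds the proton pumps. The core subunits of the membrane arm are encoded in mitochondrial DNA and carry other names, so the Nduf genes comprise the core of the matrix arm, the accessory subunits of both arms and part of the assembly factors. Kidney tubule cells rely strongly on oxidative phosphorylation for salt transport.

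The antisense strands are shown because they are what distinguishes the 3 groups. They were read from the sample labels without their overhangs, 5′ to 3′, and capitals mark the seed, bases 2 to 8.
siRNA 3488 antisense: tTTCCGGAgacgtacttct
siRNA 2600 antisense: tTGCGCACagaaatatagg
scrambled control antisense: aTTACCGAgcacattggagg
The 3 seeds differ from each other.

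Signals were linear and in arbitrary units, with array medians of 126.1 to 139.6. A change is a difference of mean log2 signals, given ± its standard error. A probe set rose or fell where limma's adjusted p over all 18625 tested probe sets was under 0.05. The tested probe sets were the brighter 60% of the array, and 44 of the 46 Nduf probe sets (41 genes) were among them. The probe set for Adamts16 had signals of 12.1 and 40.4 under siRNA 3488, 21.4 and 2.42 under siRNA 2600, and 8.68, 7.18 and 18.9 with the scrambled control. It lay below the filter, so the knockdown could not be read from it. The array of siRNA 2600 replicate 1 correlated at 0.985, 0.984 and 0.98 with the scrambled control arrays and at 0.98 with its own replicate. Actin 3′ to 5′ signal ratios were 1.96 and 1.94 under siRNA 3488, 1.83 and 1.81 under siRNA 2600, and 1.74 to 1.79 in the controls. The hybridisation spikes, 18 probe sets, had median log2 deviations of 0.34 and 0.71 under siRNA 3488, -0.08 and 0.13 under siRNA 2600, and -0.06 to 0.03 in the controls. The part of these 2 measures in the results was not tested.

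The labelled cell type was set against its markers. Of 13 tubule epithelium markers 12 were on the array and 4 passed the filter. Krt8, a simple epithelial keratin, averaged a signal of 6185 over the 7 arrays. Aqp1 (343.8), Krt19 (111.3) and Lrp2 (89.09) passed the filter as well. Pax8 (70.02), Slc34a1 (40.92), Cubn (18.45), Pax2 (16.11), Krt18 (15.3), Epcam (13.9), Cdh16 (12.8) and Cdh1 (4.73) did not pass the filter. Of 10 fibroblast markers 6 passed the filter. Col3a1 (21513), Postn (4094) and Col1a1 (2850) were bright, while Dcn (32.4), Thy1 (27.3), Pdgfra (8.47) and Lum (7.90) were dim. Of 5 leukocyte markers 3 passed, with Cd14 at 5974, Cd68 at 262.1 and Ptprc, the leukocyte surface phosphatase, at 4.97. Of 4 endothelial markers on the array 1 passed, Tek at 241.5, and Pecam1 was at 9.94.

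Some of these markers moved with siRNA 3488. Summed fibroblast marker signals were 32906 to 36433 under siRNA 3488, 27133 to 28893 under siRNA 2600 and 26709 to 27320 in the controls. Most of that sum was Col3a1, which averaged 26451 with siRNA 3488 and 19397 in the controls. Col3a1 and Col1a1 rose with siRNA 3488 by 0.44 each, and Col1a2 (0.30), Pdgfrb (0.08), Fbln1 (-0.09) and Postn (-0.13) did not pass. Summed tubule epithelium marker signals were 7324 to 7957 under siRNA 3488, 6585 to 6636 under siRNA 2600 and 6300 to 6978 in the controls. Most of the tubule sum was Krt8, which averaged 6781 with siRNA 3488 and 5963 in the controls. None of the 4 tested tubule markers passed with siRNA 3488 (Krt8 0.18, limma adjusted p = 0.0949). Leukocyte sums were 6316 to 6617 under siRNA 3488, 6426 to 6600 under siRNA 2600 and 6019 to 6503 in the controls. Most of the leukocyte sum was Cd14, which averaged 5956 with siRNA 3488 and 5869 in the controls. Cd68, a lysosomal protein of macrophages, rose with siRNA 3488 (0.67, limma adjusted p = 0.0141). Endothelial sums were 317.6 to 322.8 under siRNA 3488, 273.3 to 360.6 under siRNA 2600 and 296.9 to 352.6 in the controls. In RNA from whole cultures, fewer cells of a type and less RNA per cell cannot be told apart, and the part of these markers in the complex I values was not tested.

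With siRNA 3488, many but not all complex I subunit transcripts were modestly higher than in scrambled control cultures. Of the 34 subunit genes 16 rose and 0 fell, and Ndufa4 rose as well. The rises spanned 1.20 to 1.49-fold. None of the 6 assembly factors passed the test. Across all tested probe sets 6.89% were higher and 8.74% lower in this comparison, and with median centring the calls over all were 1728 higher and 576 lower, beside 1283 and 1628 with the deposited scaling. The median change of the 44 Nduf probe sets was 0.21, beside -0.06 over all tested probe sets, and 34 of the 44 were above 0. Without the intensity trend in limma, 2 of the 17 calls were kept, Ndufa12 and Ndufa4. In 26 of the 44 both siRNA 3488 arrays lay above all 3 controls and in 1 below them, a separation that 19.2% and 31.1% of all tested probe sets showed in those directions.

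**Figure D1:**
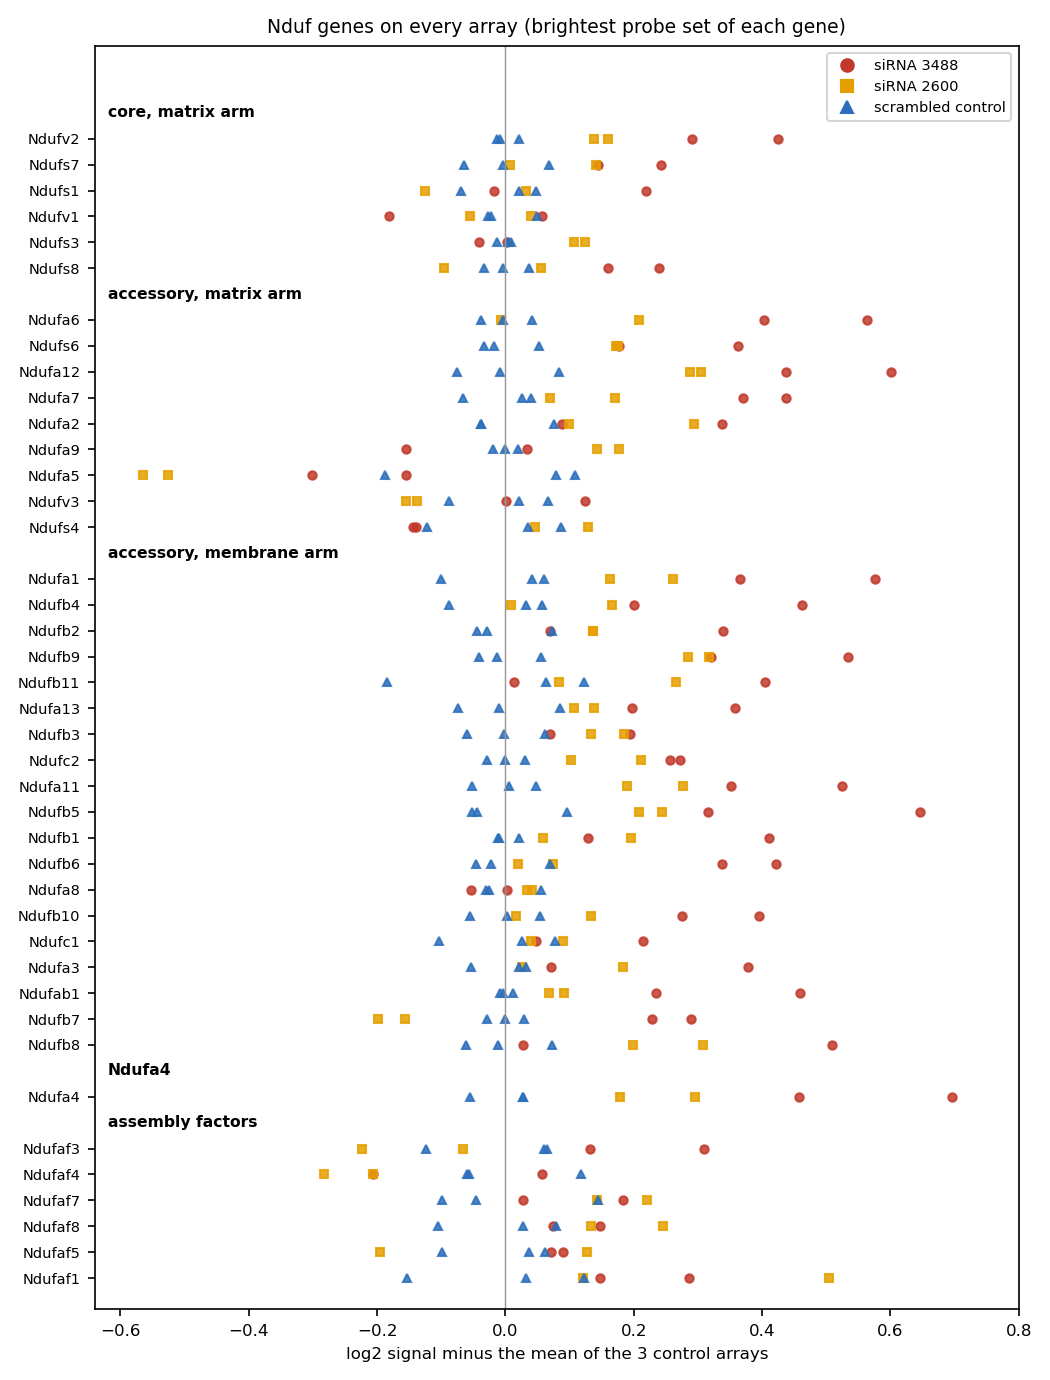
Each row is a gene, grouped by its place in complex I, and each point is 1 array: log2 signal minus the mean of the 3 scrambled control arrays. Ndufa12 lies to the right of the controls on all 4 siRNA arrays, and Ndufa5 lies furthest to the left on the siRNA 2600 arrays.

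The core of the matrix arm carries the redox chain, and 1 of its 6 measured genes rose with siRNA 3488. That gene was Ndufv2, which holds an iron-sulphur cluster beside the NADH site. Its signal averaged 3943.8 ± 260 with siRNA 3488 and 3075.3 ± 40.7 in the controls (SD, n = 2 and 3), a change of 0.36 ± 0.06 (limma adjusted p = 0.00706). Its partner Ndufv1, the flavin and NADH binding subunit, had a change of -0.06 that did not pass. Ndufs1 (0.10), Ndufs7 (0.19) and Ndufs8 (0.20), all iron-sulphur subunits, and Ndufs3 (-0.02) did not pass either. The median change of the 6 core genes was 0.15 with siRNA 3488 and 0.03 with siRNA 2600.

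Among the accessory subunits of the matrix arm 4 of 9 genes rose with siRNA 3488. Ndufa12, whose human paralogue is the assembly factor NDUFAF2, had signals of 4289 and 4807 under siRNA 3488, 3868 and 3915 under siRNA 2600, and 3006, 3358 and 3150 in the controls. All 4 siRNA arrays lay above all 3 controls, and the change with siRNA 3488 was 0.52 ± 0.07 (limma adjusted p = 0.00345). Ndufa7 had signals of 4105 and 4298 under siRNA 3488, 3331 and 3571 under siRNA 2600, and 3031, 3264 and 3233 in the controls. Its change with siRNA 3488 was 0.40 ± 0.06 (limma adjusted p = 0.00563), and the siRNA 2600 arrays lay just above the highest control. A dim second probe set of Ndufa7 had signals of 100.8 and 123.6 under siRNA 3488, 175.6 and 184.5 under siRNA 2600, and 133.7, 127.1 and 117.2 in the controls. It disagreed in direction with the bright one for siRNA 3488 (-0.17) and for siRNA 3488 against siRNA 2600 (-0.69, limma adjusted p = 0.0866). Its change with siRNA 2600 was 0.52, and it passed in no comparison.

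Ndufa6, a protein of the LYR family that binds the mitochondrial acyl carrier protein, had signals of 5230 and 5844 under siRNA 3488, 3936 and 4567 under siRNA 2600, and 3945, 4067 and 3852 in the controls. Its siRNA 3488 arrays were the highest, and the siRNA 2600 arrays overlapped the controls. The change with siRNA 3488 was 0.48 ± 0.08 (limma adjusted p = 0.00572). Ndufs6, a zinc-binding subunit, also rose (0.27). Ndufa2 (0.21), Ndufa9 (-0.06), Ndufs4 (-0.14), Ndufv3 (0.06) and Ndufa5 (-0.23) did not pass. A dimmer second probe set of Ndufv3 had a change of -0.23 and passed in no comparison. NDUFS4 is a human gene in which mutations cause Leigh syndrome.

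The accessory subunits of the membrane arm held the largest number of rises with siRNA 3488, 11 of 19 genes, with a median change of 0.27. Ndufa11, a membrane-spanning subunit, had signals of 4028 and 4542 under siRNA 3488, 3598 and 3823 under siRNA 2600, and 3042, 3168 and 3261 in the controls. The groups did not overlap, and the change with siRNA 3488 was 0.44 ± 0.07 (limma adjusted p = 0.00563). Ndufb9, another LYR protein, had signals of 6101 and 7070 under siRNA 3488, 5949 and 6083 under siRNA 2600, and 4746, 5073 and 4839 in the controls. All 4 siRNA arrays were above the controls, with a change of 0.43 ± 0.07 for siRNA 3488 (limma adjusted p = 0.0067).

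Ndufa1 and Ndufb4 were the brightest subunit genes. Ndufa1, a small hydrophobic subunit needed for assembly of the complex, had signals of 9289 and 10749 under siRNA 3488, 8071 and 8641 under siRNA 2600, and 6721, 7418 and 7510 in the controls. It changed by 0.47 ± 0.08 with siRNA 3488 (limma adjusted p = 0.00675), and the 3 groups did not overlap. Ndufb4 had signals of 7695 and 9227 under siRNA 3488, 6736 and 7516 under siRNA 2600, and 6301, 6965 and 6846 in the controls. The siRNA 3488 arrays were the highest and the siRNA 2600 arrays overlapped the controls. Its change with siRNA 3488 was 0.33 ± 0.09 (limma adjusted p = 0.0309). The call of Ndufb4 was lost in 8 of 17 alternatives, and its change over the 17 ran from 0.06 to 0.46.

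The other 7 membrane arm genes that rose with siRNA 3488 were Ndufb5 (0.48), Ndufb6 (0.38), Ndufab1 (0.35), Ndufb10 (0.34), Ndufa13 (0.28), Ndufc2 (0.26) and Ndufb7 (0.26). Ndufab1 is the mitochondrial acyl carrier protein, and Ndufa13 is also known as GRIM-19. The 8 membrane arm genes that did not pass had changes of -0.03 (Ndufa8) to 0.27 (Ndufb1 and Ndufb8). Ndufb8, the dimmest subunit gene, had signals of 253.8 and 354.1 under siRNA 3488, 285.6 and 308.2 under siRNA 2600, and 247, 261.9 and 238.5 in the controls. One siRNA 3488 array of Ndufb8 lay within the controls.

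Ndufa4 was first described as a complex I subunit and is now assigned to complex IV, cytochrome c oxidase. It had signals of 10057 and 11875 under siRNA 3488, 8294 and 8989 under siRNA 2600, and 7054, 7470 and 7466 in the controls. The 3 groups did not overlap. The change was 0.58 ± 0.08 with siRNA 3488 (limma adjusted p = 0.0034) and 0.24 with siRNA 2600, which did not pass. Ndufa4l2, a homologue induced by hypoxia, lay below the filter. Its signals were 7.603 and 7.895 under siRNA 3488, 31.94 and 52.51 under siRNA 2600, and 32.76, 61.72 and 67.34 in the controls. A second, dim probe set of Ndufa9 had a like pattern, at 5.797 and 2.556 under siRNA 3488, 32.98 and 29.37 under siRNA 2600, and 32.08, 29.48 and 40.07 in the controls. Signals of this size are imprecise. With no filter, both of these dim probe sets were called lower with siRNA 3488. The changes were -2.73 for Ndufa4l2 and -3.13 for the Ndufa9 probe set (limma adjusted p = 0.0263 and 0.0242). The bright probe set of Ndufa9 did not follow, at 1883 and 2145 with siRNA 3488 against 2068, 2094 and 2125 in the controls.

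Assembly factors help to build the complex and are not part of the finished enzyme. None of the 6 measured passed in any comparison in limma. At an unadjusted p under 0.05 there were 0 with siRNA 3488, 1 with siRNA 2600 (Ndufaf4), 0 with both and 1 between the siRNAs (Ndufaf3). Changes with siRNA 3488 ran from -0.07 (Ndufaf4, which acts with Ndufaf3 early in assembly) to 0.22 (Ndufaf1 and Ndufaf3), with a median of 0.11. With siRNA 2600 the values for Ndufaf4, Ndufaf3 and Ndufaf1 were -0.25, -0.15 and 0.31. Ndufaf1, the dimmest assembly factor, had signals of 319.5 and 352 under siRNA 3488, 313.9 and 409.3 under siRNA 2600, and 259.4, 295 and 314.1 in the controls. Ndufaf5, which hydroxylates an arginine of Ndufs7, had a change of 0.08 with siRNA 3488, its partner Ndufaf8 one of 0.11, and Ndufaf7, a methyltransferase, one of 0.10. A dimmer second probe set of Ndufaf7 had a change of 0 with siRNA 3488 and passed in no comparison. The median log2 signal was 9.12 for the assembly factors and 11.58 for the subunits.

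With siRNA 2600 no complex I gene rose and 1 fell. The gene that fell was Ndufa5, an accessory subunit of the matrix arm near the ubiquinone site. It had signals of 1273 and 1408 under siRNA 3488, 1089 and 1060 under siRNA 2600, and 1378, 1657 and 1691 in the controls. Both siRNA 2600 arrays lay below every other array, with a change of -0.55 ± 0.10 (limma adjusted p = 0.0319, interval -0.76 to -0.33). The siRNA 3488 arrays overlapped the controls in Ndufa5, and that change of -0.23 did not pass (limma adjusted p = 0.136). Across all tested probe sets 0.548% were higher and 0.483% lower with siRNA 2600. Of the 44 Nduf probe sets 15 had an unadjusted p under 0.05, against 2831 of all 18625. The lowest adjusted p of a higher member was 0.091 (Ndufb9, change 0.30). The median of the 44 was 0.12, beside -0.02 over all tested probe sets, and 33 were above 0. Both siRNA 2600 arrays lay above all 3 controls in 21 of the 44 and below them in 4, which 14.4% and 19.6% of all tested probe sets did. The call of Ndufa5 was lost in 8 of 17 alternatives, among them without either siRNA 2600 array and without scrambled control replicate 2 or 3 (changes of -0.57, -0.53, -0.51 and -0.49), and with median centring, no filter or no intensity trend.

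**Figure D2:**
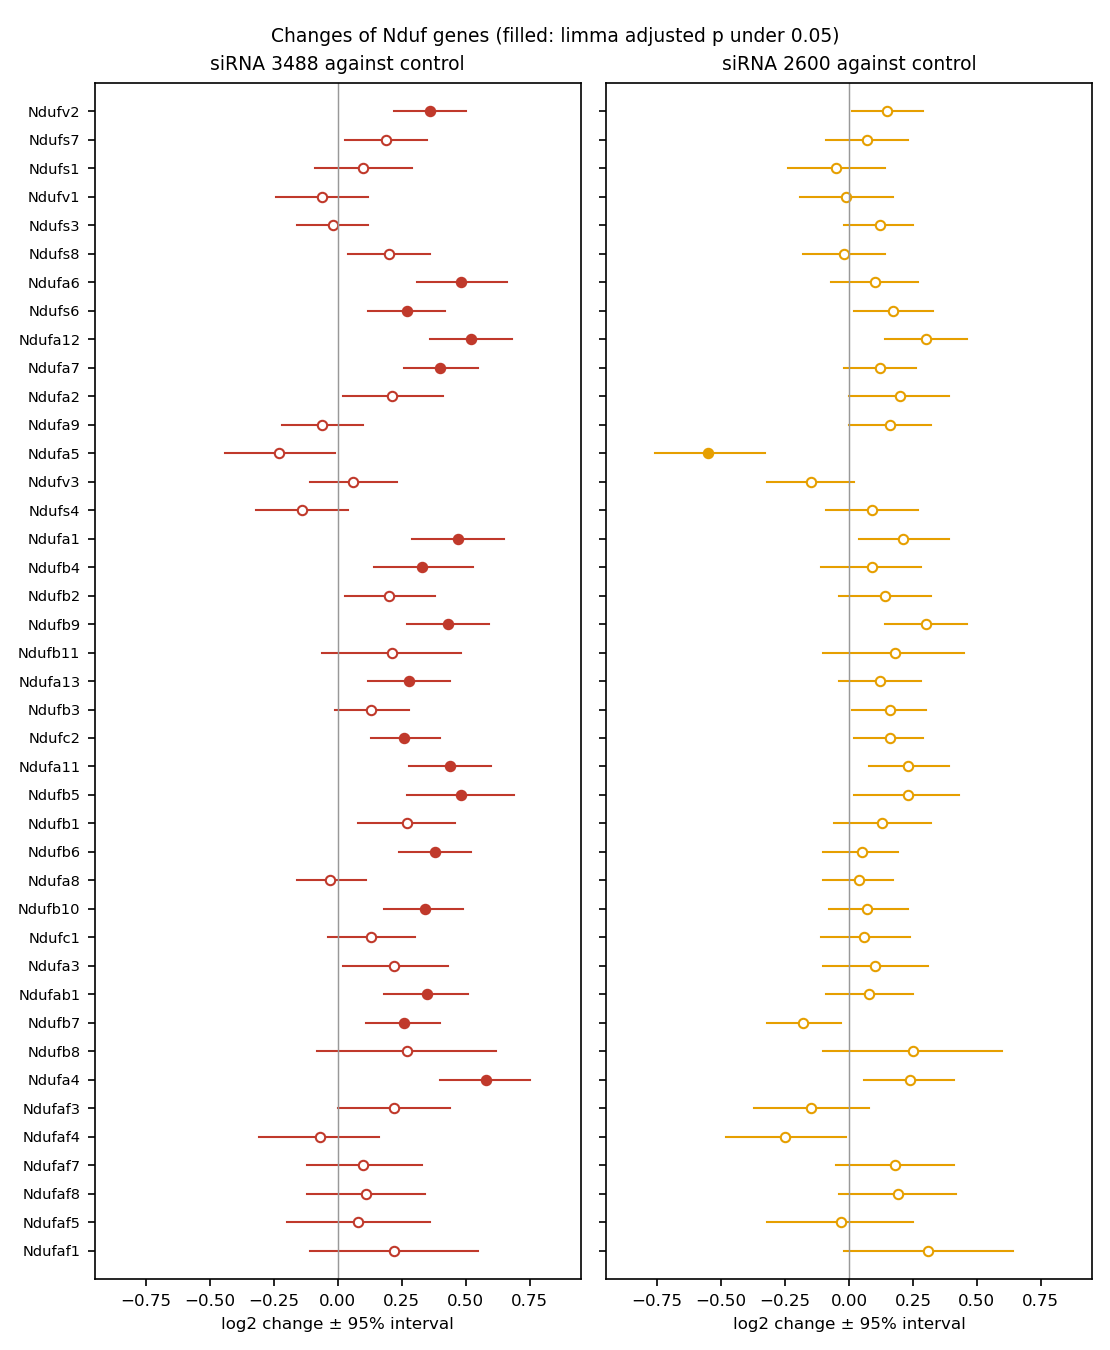
Log2 change of the brightest probe set of each gene against scrambled control, with 95% intervals, for siRNA 3488 on the left and siRNA 2600 on the right. Filled points passed the test: 17 genes to the right of 0 with siRNA 3488, and Ndufa5 to the left of 0 with siRNA 2600.

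With both siRNAs taken as 1 group of 4 arrays against the 3 controls, limma called 0 of the 44 Nduf probe sets, and 0.102% of all tested probe sets were higher and 0.043% lower. At an unadjusted p under 0.05 there were 17 of the 44, against 3310 of all 18625. The lowest adjusted p was 0.087, for Ndufa12 (change 0.41 ± 0.09) and Ndufb9 (0.36 ± 0.08). In 15 of the 44 all 4 siRNA arrays lay above all 3 controls and in 0 below, where 6.66% and 11% of all tested probe sets did so. The median of the 44 was 0.17, beside -0.05 over all. The comparisons with each siRNA and with both share the same 3 control arrays.

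The difference between the siRNAs was tested directly, and 5 Nduf genes were higher with siRNA 3488 than with siRNA 2600 while 0 were lower. Across all tested probe sets 2.84% were higher and 3.17% lower. Ndufb7, a membrane arm subunit, had signals of 1816 and 1894 under siRNA 3488, 1391 and 1351 under siRNA 2600, and 1550, 1520 and 1583 in the controls. The siRNA 3488 arrays were above the controls and the siRNA 2600 arrays below them, and the difference was 0.44 ± 0.07 (limma adjusted p = 0.0135). Ndufb6 had signals of 3726 and 3951 under siRNA 3488, 2989 and 3103 under siRNA 2600, and 2856, 3093 and 2903 in the controls. There the siRNA 2600 arrays overlapped the controls, and the siRNAs differed by 0.33 ± 0.07 (limma adjusted p = 0.0285). In 23 of the 44 both siRNA 3488 arrays lay above both siRNA 2600 arrays and in 5 below, where 21.9% and 27.7% of all did. Ndufa6 (0.38 ± 0.09), Ndufa7 (0.28 ± 0.07) and Ndufa4 (0.34 ± 0.09) also differed, with limma adjusted p of 0.0342, 0.0449 and 0.0467. The dim second probe set of Ndufa7 went the other way (-0.69) and did not pass. For Ndufa5 the difference of 0.32 did not pass (limma adjusted p = 0.105). The count of 5 was 8 without siRNA 3488 replicate 1, 0 without siRNA 3488 replicate 2 or siRNA 2600 replicate 1, and 1 when any single control array was left out.

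Brightness moved with these values, so the members were set beside other probe sets of equal mean log2 signal. With siRNA 3488, 0 of 10 Nduf probe sets rose under a log2 signal of 10 and 2 of 7 between 10 and 11, where 2.55% and 6.58% of other probe sets did. Between 11 and 12, 9 of 18 rose, with a median of 0.27, while 15.1% of 1375 other probe sets rose, with a median of 0.04. Over 12, 6 of 9 rose, with a median of 0.33, beside 54.8% of 982 others, with a median of 0.25. With siRNA 2600 the Nduf medians in the upper bands were 0.12 and 0.16, beside 0.02 and 0.06 for the others. For siRNA 3488 against siRNA 2600, the members called higher were 0 of 10, 1 of 7, 2 of 18 and 2 of 9 from the dimmest to the brightest band, beside 0.92%, 2.51%, 5.96% and 25.5% of the others. The rises of the brightest members, Ndufa4, Ndufa1 and Ndufb4, thus lie where most other probe sets rose too.

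The siRNA 3488 comparison was repeated after normalizations that act on the dependence on brightness. After quantile normalization 13 of the 44 rose with siRNA 3488 (median 0.17), while 4.51% of other probe sets did (median -0.02). In the band from 11 to 12 it was 7 of 18 beside 8.93% of the others, and over 12 it was 4 of 9 beside 8.45%. Cyclic loess, a smoothing of array against array by brightness, gave 13 of 44 beside 5.25%, 7 of 18 beside 8.85%, and 4 of 9 beside 15.5%. By role, quantile normalization left 1 of 6 core genes, 3 of 9 matrix arm and 8 of 19 membrane arm accessory genes higher, with medians of 0.13, 0.12 and 0.19. The 6 Nduf assembly factors had 0 calls there, but their median of 0.20 was no lower than those of the subunits. With cyclic loess the assembly factors again had 0 calls, and their median was 0.22.

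**Figure D3:**
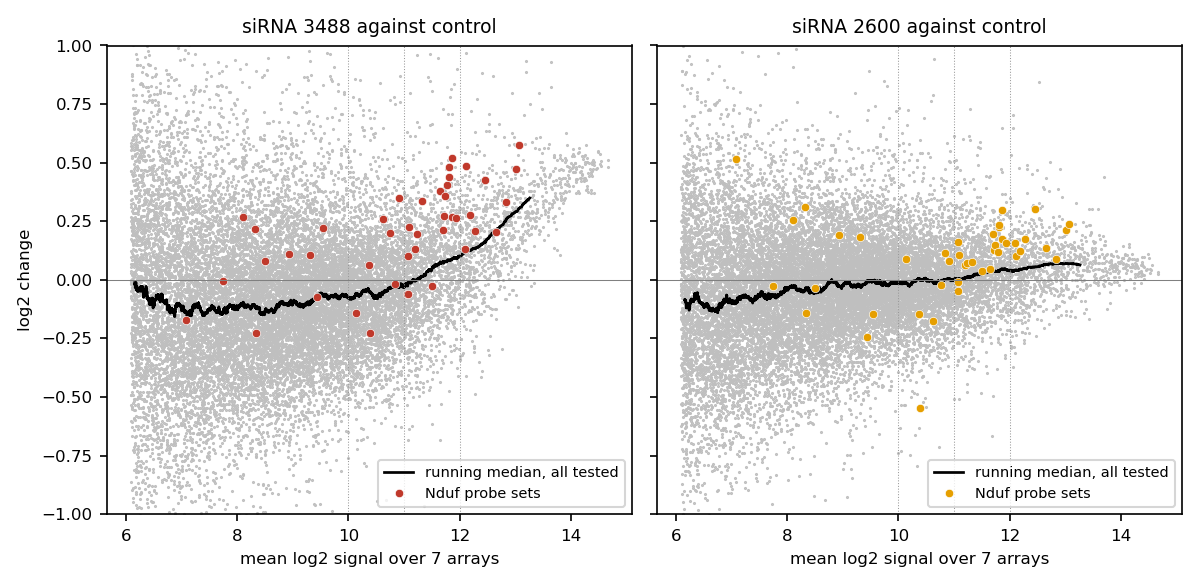
Log2 change of every tested probe set (grey) against its mean log2 signal over the 7 arrays, with Nduf probe sets coloured and the running median of all tested probe sets in black. Dotted lines mark the brightness bands, and probe sets beyond a change of 1 either way are not drawn. With siRNA 3488 the running median climbs in the bright range, and most Nduf probe sets between 11 and 12 sit above it.

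The other respiratory complexes were given by a list of subunits of complexes II to V. With siRNA 3488, 30 of 34 rose and 0 fell, with a median of 0.36, and their median log2 signal was 12.72. Examples were Cox6a1 (0.64) and Cox7b (0.61) of cytochrome c oxidase, Uqcr10 (0.58) of complex III and Atp5f1b (0.36), the catalytic beta subunit of ATP synthase. With siRNA 2600 none of the 34 passed in limma (7 had an unadjusted p under 0.05), and the median was 0.11. After quantile normalization 14 of the 34 rose with siRNA 3488 and the median was 0.13. Of 12 other mitochondrial proteins 6 rose with siRNA 3488 as deposited and 1 after quantile normalization. The 6 included the porins Vdac1, Vdac2 and Vdac3 (0.25, 0.33 and 0.25) and the chaperonin Hspd1 (0.31).

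Of 13 listed regulators of mitochondrial biogenesis on the array 12 passed the filter, and Ppargc1a did not. With siRNA 3488, 0 of the 12 rose and 2 fell, with a median of -0.15. Yy1, a zinc finger transcription factor, averaged a signal of 2771 with siRNA 3488 and 3510 in the controls (-0.34 ± 0.07, limma adjusted p = 0.0117). Gabpa, the DNA-binding subunit of the ETS-family factor GABP, averaged 1066 with siRNA 3488 and 1419 in the controls (-0.41 ± 0.09, limma adjusted p = 0.0145). Both falls stand beside 8.74% of all tested probe sets that were lower. Quantile normalization and cyclic loess also left 2 of the 12 lower (medians of -0.07 and -0.05), and with median centring 0 passed (median -0.06). With siRNA 2600 Yy1 (0.03) and Gabpa (-0.07) did not pass. Yy1 was lower with siRNA 3488 than with siRNA 2600 (-0.37, limma adjusted p = 0.0269).

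**Figure D4:**
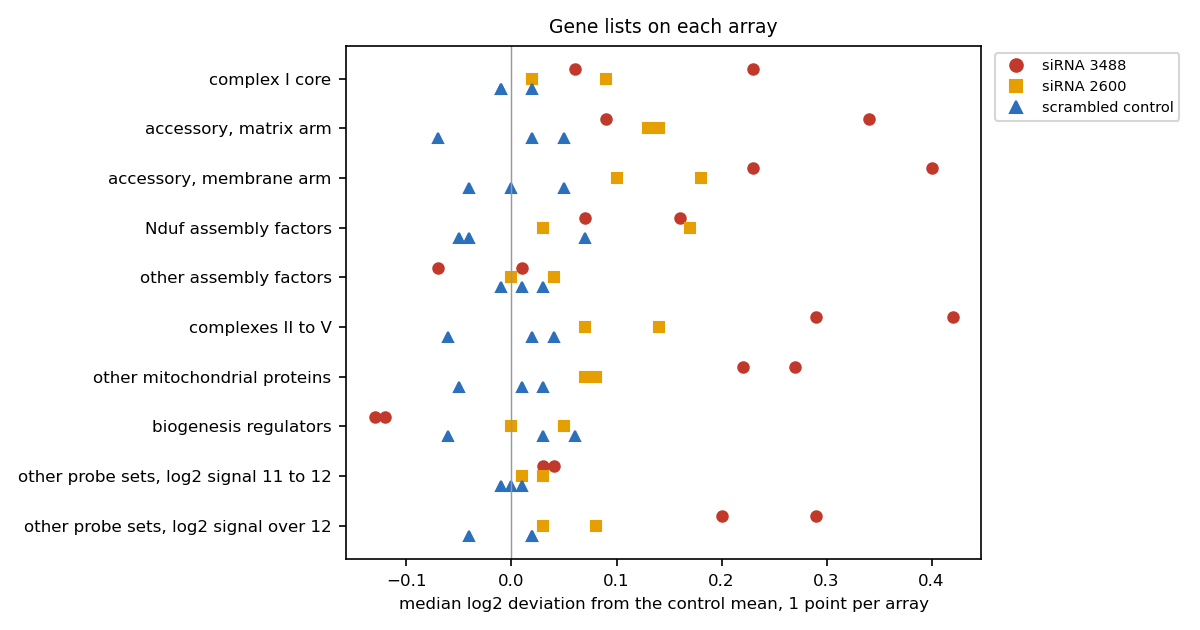
Median log2 deviation from the control mean of each gene list, 1 point per array. The siRNA 3488 arrays of the membrane arm subunits stand at 0.23 and 0.40 and those of other probe sets with a log2 signal of 11 to 12 at 0.03 and 0.04, while other probe sets over 12 stand at 0.20 and 0.29.

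The array medians showed how each culture contributed. The 44 Nduf probe sets had median log2 deviations of 0.13 and 0.29 under siRNA 3488, 0.10 and 0.14 under siRNA 2600, and -0.04, 0.04 and 0 in the controls. All 4 siRNA arrays were above all 3 controls, and siRNA 3488 replicate 2 was above replicate 1 in 38 of the 44. Other probe sets with a log2 signal over 12 had medians of 0.20 and 0.29 under siRNA 3488, 0.03 and 0.08 under siRNA 2600, and -0.04, 0.02 and 0.02 in the controls. Without siRNA 3488 replicate 2, 3 Nduf probe sets passed with siRNA 3488, and without scrambled control replicate 1, 10. With 1 array left in a group, the test takes that array to vary like those of the other groups. Without siRNA 2600 replicate 1, the array most like the controls, 9 passed for both siRNAs against the control.

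The promoters of a chosen few of the members that rose, and of Ndufa5, are printed to show the motifs that were searched. They do not stand for all members that rose, whose shares with a motif follow in the next paragraph. They come from RefSeq (assembly GRCr8), read 5′ to 3′ along the gene from position -130 to position 30 around the annotated start, and capitals mark a match. The motifs were GCGCATGCG for NRF1, CCGGAAG for ETS factors such as GABP, and AAGATGGC for YY1, each on both strands.
Ndufa12 (chr7:30658186-30658345, + strand): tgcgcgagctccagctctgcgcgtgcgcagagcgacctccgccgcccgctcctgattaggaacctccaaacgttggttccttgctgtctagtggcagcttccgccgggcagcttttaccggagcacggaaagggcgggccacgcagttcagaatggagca
Ndufa11 (chr9:1637484-1637643, + strand): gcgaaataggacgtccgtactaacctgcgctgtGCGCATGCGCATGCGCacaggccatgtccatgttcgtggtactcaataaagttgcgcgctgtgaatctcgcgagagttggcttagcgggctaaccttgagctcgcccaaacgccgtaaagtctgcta
Ndufa1 (chrX:121293526-121293685, - strand): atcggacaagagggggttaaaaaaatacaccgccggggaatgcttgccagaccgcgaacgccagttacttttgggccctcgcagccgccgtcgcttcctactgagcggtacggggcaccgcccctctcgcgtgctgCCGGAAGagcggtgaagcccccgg
Ndufa6 (chr7:115750288-115750447, - strand): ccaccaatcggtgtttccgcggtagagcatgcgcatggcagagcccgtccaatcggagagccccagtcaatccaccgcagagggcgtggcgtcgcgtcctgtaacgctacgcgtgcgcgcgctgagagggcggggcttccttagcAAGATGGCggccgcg
Ndufa5 (chr4:53971206-53971365, - strand): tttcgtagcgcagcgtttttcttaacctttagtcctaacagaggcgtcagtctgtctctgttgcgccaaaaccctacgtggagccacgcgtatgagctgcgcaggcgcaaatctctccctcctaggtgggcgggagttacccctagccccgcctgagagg
The capitals are 4 overlapping NRF1 matches, counted on both strands, in Ndufa11, an ETS match in Ndufa1 and a YY1 match in Ndufa6, while these letters were not found in the stretches of Ndufa12 and Ndufa5.

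Over windows from 250 bases before to 50 after the start, 40 of the 42 members were matched to a promoter. Of these 19 (47.5%) held at least 1 of the 3 motifs, as did 12.5% of all 33469 promoters. YY1 matches were in 10 (25%, beside 3.17% of all promoters), ETS matches in 9 (22.5%, beside 8.75%) and NRF1 matches in 3 (7.5%, beside 1.52%). All 10 YY1 matches were on the gene's own strand and began between positions -1 and 27. Among the 15 subunit genes that rose with siRNA 3488 and had a promoter, 6 held a motif (40%), and among the 17 that did not pass, 8 did (47.1%). The matches describe letters in these windows and show no binding.

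Some members could not be read cleanly. Ndufa10, Ndufs5, Ndufaf2 and Ndufaf6 had no probe set of their own. A pair of further probe sets each carried several Nduf symbols and names no gene, and 1 of them rose with siRNA 3488 (0.55, limma adjusted p = 0.00458). RefSeq lists 49 rat pseudogenes of 21 Nduf symbols, 7 of Ndufb4 and 4 each of Ndufa2, Ndufa5 and Ndufa13 among them. Signals of these genes are uncertain to the extent that near-identical copies hybridise to the same probes.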

How the data were processed

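RNA of 7 cultures was measured on 1 Affymetrix array each. The authors deposited intensity values, a linear signal for every probe set, and the submitters' processing notes name GCOS 1.4. The sources used here do not give the background, summary and scaling settings or the detection calls. In the deposited values the mean signal, with 2% trimmed at each end, was 500 on all 7 arrays. Signals below 1 were raised to 1 before log2, and the deposited scaling was kept. After removal of 57 control probe sets, the upper 60% by mean log2 signal (18625, at 6.09 or more) entered the tests. Symbols came from a table of the platform's annotation, looked up by Entrez identifier in RefSeq's gene table (GRCr8), where 0 Nduf symbols changed.

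Differences were tested with limma 3.58.1 in R 4.3.3, using lmFit and then eBayes with a trend on intensity. P-values were adjusted by Benjamini-Hochberg over all tested probe sets and called at 0.05, and the procedure was tested on simulated data. A model with 2 groups compared both siRNAs with the control, and a model with 3 groups over all 7 arrays gave the other comparisons. The number of arrays limits the precision.

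Given in full were, per comparison, the 5 called subunit genes with the lowest p in each direction, called assembly factors, the 3 brightest and 3 dimmest members and Ndufa4, and of other lists up to 4 members with the lowest p. For several probe sets the brightest was a gene's main one. The members and lists were chosen with earlier results of these data known. Deviations of arrays with the same replicate number had correlations from -0.0483 to 0.163, and the numbers were not taken as pairs. With 2 arrays per siRNA these correlations cannot decide whether the numbers mark pairs. In every group the Nduf median and the hybridisation spikes were higher on replicate 2 than on replicate 1. Alternatives were quantile normalization, median centring, cyclic loess, no filter, the upper 40%, 32 added to signals, eBayes without the trend, 1 probe set per gene, the replicate block, a different choice of arrays per model and each array left out.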

Additional observations from a re-analysis of the deposited data

Results flagged for a closer look

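A test of the difference between the siRNAs, in the fit of 3 groups, set apart 5 Nduf genes, all higher with siRNA 3488 than with siRNA 2600. The differences were 0.44 for Ndufb7 (limma adjusted p = 0.0135), 0.33 for Ndufb6 (0.0285), 0.38 for Ndufa6 (0.0342), 0.28 for Ndufa7 (0.0449) and 0.34 for Ndufa4 (0.0467). For Ndufa7 a dim second probe set went the other way (-0.69) and did not pass. In Ndufb7 the siRNA 3488 arrays lay above all controls and the siRNA 2600 arrays below them. No group held enough arrays for a check of single arrays that stand apart.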

How the results depend on the processing

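Across 17 alternatives, the 23 calls of single genes gave 391 values, of which 282 kept their call, 109 lost it and 0 changed direction. Ndufa12 and Ndufa4 with siRNA 3488 kept their calls under all 17. Among the other rises with siRNA 3488, Ndufb4 lost its call under 8, and Ndufa13, Ndufc2 and Ndufs6 under 7 each. The median change of the tested Nduf probe sets stayed above 0 in each comparison under every alternative, and with median centring it was 0.31 for siRNA 3488, 0.20 for siRNA 2600 and 0.26 for both. Counts of called Nduf probe sets moved more, and the causes were not tested. For siRNA 3488 (17) there were 2 without the intensity trend. For siRNA 2600 (1) there were 2 with quantile normalization, 2 with other arrays in the fit, and 0 with median centring, no filter, no intensity trend or the replicate block. For siRNA 3488 against siRNA 2600 (5) there were 2 with quantile normalization, median centring or cyclic loess, 1 with no filter, and 0 with no intensity trend or other arrays in the fit. For both siRNAs against the control (0) there were 13 (12 higher, 1 lower) with other arrays in the fit. With the replicate number as a block the count for siRNA 3488 was 18 and for siRNA 3488 against siRNA 2600 it was 7. Leaving out each array in turn, where a lone siRNA array is assumed to vary like the other groups, gave 3 to 19 calls for siRNA 3488, 0 to 2 for siRNA 2600, 0 to 8 for siRNA 3488 against siRNA 2600 and 0 to 9 for both siRNAs. The medians then ran from 0.13 to 0.29, 0.09 to 0.14, 0.08 to 0.23 and 0.13 to 0.19 in the same order. Dim probe sets limit what can be said of Ndufa4l2 and of Adamts16.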

Other observations

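Assembly factors of complex I that carry other names were described by a list of 10 tested genes. None passed in limma in any comparison, though 3 with siRNA 3488 and 2 with siRNA 2600 were lower at an unadjusted p under 0.05, and the median change was -0.01 with siRNA 3488 and 0.02 with siRNA 2600. Nubpl, an iron-sulphur cluster carrier for complex I, averaged a signal of 268 with siRNA 3488, 274 with siRNA 2600 and 358.8 in the controls, with changes of -0.41 (limma adjusted p = 0.0979) and -0.39 (limma adjusted p = 0.272). Tmem70, which acts in the assembly of ATP synthase and complex I, averaged 77.5 with siRNA 3488, 96.7 with siRNA 2600 and 56.9 in the controls, and its changes of 0.56 and 0.89 did not pass.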
